A study of Mus musculus with 8 samples.

Results

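Hepatocyte identity is held by a small set of transcription factors that bind the regulatory regions of liver genes together and cross-regulate one another. The C/EBP proteins are basic leucine zipper factors that drive metabolic and secretory genes. FOXA proteins are forkhead factors that open chromatin at liver enhancers, and ONECUT1 and PROX1 are homeodomain proteins with roles in liver development and in the adult hepatocyte. Described here are 8 genes of this set, Cebpa, Cebpb, Cebpd, Foxa1, Foxa2, Foxa3, Onecut1 and Prox1, out of 22180 genes measured. They were taken by symbol from rows of the array table annotated to a single gene. Each of the 8 had 1 such row.

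The liver RNA came in 8 samples, labelled as biological replicates, from mice 3 months old kept on normal chow. All the mice were injected intravenously with an AAV, an adeno-associated virus used to carry genes into liver. In the NCOR KO group (n = 4) the virus expressed Cre recombinase in NCOR floxed mice. In the WT group (n = 4), which the labels name wild-type, it expressed GFP. The design text describes floxed mice for either virus, so whether these controls carried the floxed allele is not settled. The livers were harvested 2 weeks after injection at 5 pm (ZT10). NCOR is a corepressor recruited by nuclear receptors. The comparison asks which transcripts differ in liver once it is removed. The promoter that drives Cre and the sex of the mice are not given in the sources used here. Cre and loss of NCOR cannot be told apart, since the virus differs exactly with the group. No label ties an array to a separate animal beyond calling the replicates biological. Each array is called a liver here, and the p-values describe only how far these samples spread, which may be technical. Values for the gene encoding NCOR were not analysed here.

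Values are intensities of Affymetrix Mouse Gene 2.0 arrays, given on a linear scale or as log2. Over all rows intensities ran from 5.42 to 13268, and the median gene had a log2 intensity of 5.88. All 8 factors lay above that level. Liver identity was read from hepatocyte markers. Albumin, Alb, the brightest of all genes, was at a log2 intensity of 13.52 in both groups. The changes of 15 measured hepatocyte markers had a median of -0.01. Whether changes are compressed near the top of the intensity range was not tested. The number of arrays limits the precision of each value. A liver holds several cell types, and fewer cells of one type cannot be told apart from less RNA per cell.

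The sequence upstream of the start site is shown for 3 of the 8 genes, chosen with their values known. Cebpa is the only one of the 8 factors whose change passed the test. Onecut1 is the one with the widest spread between arrays, and Foxa2 was lowest in each group in the same array as Onecut1. The windows hold 250 bases, 5′ to 3′ on the gene's strand, from RefSeq on build GRCm38.p6. RefSeq windows were at hand for 7 of the 8 genes, Cebpd being the other. Capitals mark matches to any of 6 motifs. Of these, 5 are the C/EBP site TTGCNNAA, the FOXA site TGTTTNC, the ONECUT site ATTGATT, the E-box CACGTG and the nuclear receptor core AGGTCA. The TATA box TATAAA was added after the sequences had been read. Both strands were searched.
Cebpa (chr7:35119043-35119292, plus strand): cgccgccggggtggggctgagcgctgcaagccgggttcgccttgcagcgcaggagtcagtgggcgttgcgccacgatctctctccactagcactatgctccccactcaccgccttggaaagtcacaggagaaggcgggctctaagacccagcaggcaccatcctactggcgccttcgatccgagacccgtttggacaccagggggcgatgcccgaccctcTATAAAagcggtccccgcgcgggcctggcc
Onecut1 (chr9:74861671-74861920, plus strand): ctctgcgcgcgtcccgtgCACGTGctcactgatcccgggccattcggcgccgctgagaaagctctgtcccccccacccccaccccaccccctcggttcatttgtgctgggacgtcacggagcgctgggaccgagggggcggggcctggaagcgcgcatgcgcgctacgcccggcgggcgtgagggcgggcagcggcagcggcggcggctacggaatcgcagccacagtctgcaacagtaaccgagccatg
Foxa2, the most upstream of its 3 annotated starts (chr2:148046970-148047219, minus strand): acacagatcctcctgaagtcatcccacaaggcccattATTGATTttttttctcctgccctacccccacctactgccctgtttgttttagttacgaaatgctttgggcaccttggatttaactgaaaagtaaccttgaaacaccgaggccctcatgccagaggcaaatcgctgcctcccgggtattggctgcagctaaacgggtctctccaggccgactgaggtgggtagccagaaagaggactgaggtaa

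In the Cebpa window only the TATA box matched, 30 to 25 bases upstream of the start. In the Onecut1 window only the E-box matched, 232 to 227 bases upstream. In the Foxa2 window shown the ONECUT motif matched 213 to 207 bases upstream, and the windows of the other two Foxa2 starts held no match to it. Among 32851 upstream windows of the same length, 12.4% held the TATA box, 6.02% the E-box and 2.61% the ONECUT motif. The C/EBP motif was found in 9.56% of all windows, the FOXA motif in 17.8% and the receptor core in 14.0%. The FOXA motif also matched upstream of Foxa1 and of 1 of the 2 Prox1 starts. A match describes the letters and is not a measured binding site. Sites whose letters differ from these motifs were not marked, so a window without a match may still hold one.

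Cebpa encodes C/EBPα, the factor that maintains gluconeogenic, urea cycle and other metabolic genes in the adult liver. Its intensity was 2272, 2198, 2111 and 2237 in the WT livers and 1792, 1771, 1635 and 1712 in the NCOR KO livers. The groups did not overlap, and the lowest WT liver lay above the highest NCOR KO liver. The log2 intensity was 11.11 ± 0.05 in WT and 10.75 ± 0.06 in NCOR KO liver (SD, n = 4). Cebpa fell by 0.35 on the log2 scale (SE 0.06, limma adjusted p = 0.0158), a change of -21.7% with a 95% interval from -28.3% to -14.4%. Across all genes the same test called 366, which is 1.65%, and 185 fell, which is 0.834%. The within-group SD of Cebpa, 0.05, was small, and only 6.1% of genes had a smaller one. Leaving out single arrays kept the change between -0.37 and -0.33. The Cebpa call was lost without WT replicate 1 (adjusted p = 0.051), WT replicate 4 (0.0549), NCOR_KO replicate 2 (0.0536) or NCOR_KO replicate 3 (0.0514). After median centring of the arrays the change was -0.39, and the split of all calls moved from 181 higher and 185 lower to 145 higher and 295 lower.

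**Figure D1:**
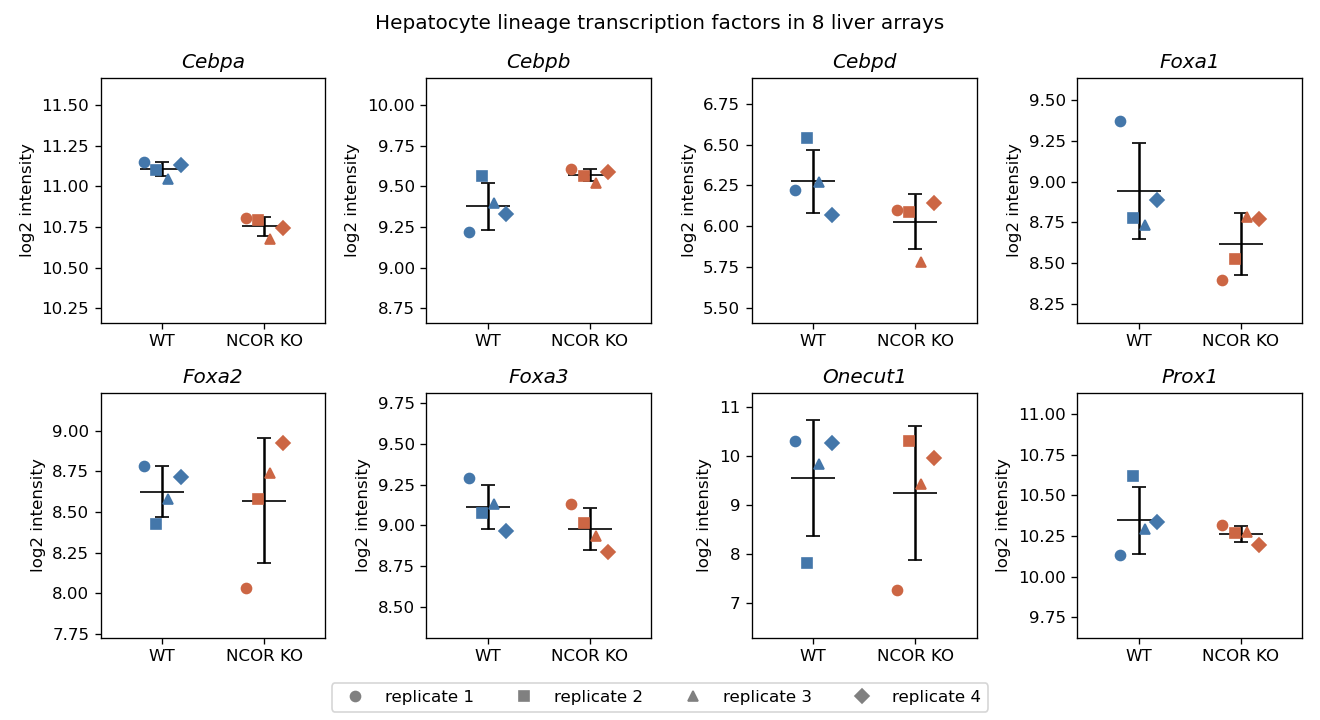
Log2 intensity (vertical axis) of the 8 transcription factors in the 4 WT and 4 NCOR KO arrays, with 1 point per array shaped by replicate number and horizontal bars with whiskers for mean ± SD. Each panel spans the same log2 range except that of Onecut1, which is wider. Cebpa is the only panel in which the 4 NCOR KO points all lie apart from the 4 WT points.

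Cebpb encodes C/EBPβ, which is induced by glucagon, cytokines and partial hepatectomy. It was measured at 595, 757, 675 and 642 in WT and at 780, 757, 733 and 768 in NCOR KO liver. WT replicate 2 lay within the NCOR KO range and the other 3 WT livers lay below it. The log2 change was 0.19 ± 0.08 (SE; limma adjusted p = 0.251), with a 95% interval from 0.02 to 0.36, and it was the only one of the 8 above 0. Cebpd encodes C/EBPδ, an acute phase regulator. It was dimmer, at 74.6, 93.0, 77.1 and 67.3 in WT and 68.6, 68.0, 54.8 and 70.8 in NCOR KO liver. Its change of -0.25 ± 0.11 (SE; adjusted p = 0.306) did not pass, and the groups overlapped.

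The FOXA factors did not pass the test. Foxa1 was at 663, 439, 426 and 474 in WT and 337, 368, 439 and 436 in NCOR KO liver, a log2 change of -0.33 ± 0.14 (SE; adjusted p = 0.295). WT replicate 1 stood above all other livers, and without it the Foxa1 change was -0.18. Foxa2 was at 440, 343, 383 and 419 in WT and 262, 383, 427 and 485 in NCOR KO liver. NCOR_KO replicate 1 was lowest and NCOR_KO replicate 4 highest of the 8, so the NCOR KO livers spanned the WT livers on both sides. Its change was -0.06 ± 0.16 (SE; adjusted p = 0.901), and it became 0.12 without NCOR_KO replicate 1. Foxa3 was at 625, 540, 561 and 499 in WT and 562, 517, 489 and 456 in NCOR KO liver, with a change of -0.14 ± 0.09 (SE; adjusted p = 0.481).

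Prox1, which represses part of the bile acid programme and is also a marker of lymphatic endothelium, was at 1123, 1574, 1254 and 1294 in WT and 1274, 1236, 1239 and 1175 in NCOR KO liver. The highest and the lowest of the 8 values were both WT livers. The change was -0.08 ± 0.09 (SE; adjusted p = 0.716), with a 95% interval from -0.29 to 0.13. Of 6 measured lymphatic endothelial markers, 0 passed the limma threshold and 2 had an unadjusted p under 0.05, as did 15.9% of all genes. The largest difference among them was that of Lyve1, at 0.28 (adjusted p = 0.301). Their summed intensity was 1710 to 1992 in WT and 1862 to 2164 in NCOR KO liver. Lyve1, Reln and Flt4, at mean log2 intensities of 9.73, 9.35 and 8.22, made up most of that sum. Which cells gave their signal was not tested.

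Taking the 8 factors side by side, 1 fell, 0 rose and 7 did not pass, where the same limma test called 1.65% of all genes. An unadjusted limma p under 0.05 was seen for 4 of the 8 (Cebpa, Cebpb, Cebpd and Foxa1) and for 15.9% of all genes. The changes of 7 were below 0 and the median of all 8 was -0.19, while 48.0% of all genes had a change below 0 and the median over all genes was 0.0063. The groups were fully apart for 1 of the 8, Cebpa, and for 10.4% of all genes. The 8 were chosen with earlier results of these data known, so the shares over all genes are not a blind yardstick. All 8 also lay above the median gene level. A fit limited to genes at or above that level called 551, against 366 in the fit of all genes. The intervals differ widely in width. They allow a change between -0.29 and 0.13 for Prox1 and between -1.84 and 1.21 for Onecut1, so a missed threshold says little about Onecut1.

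**Figure D2:**
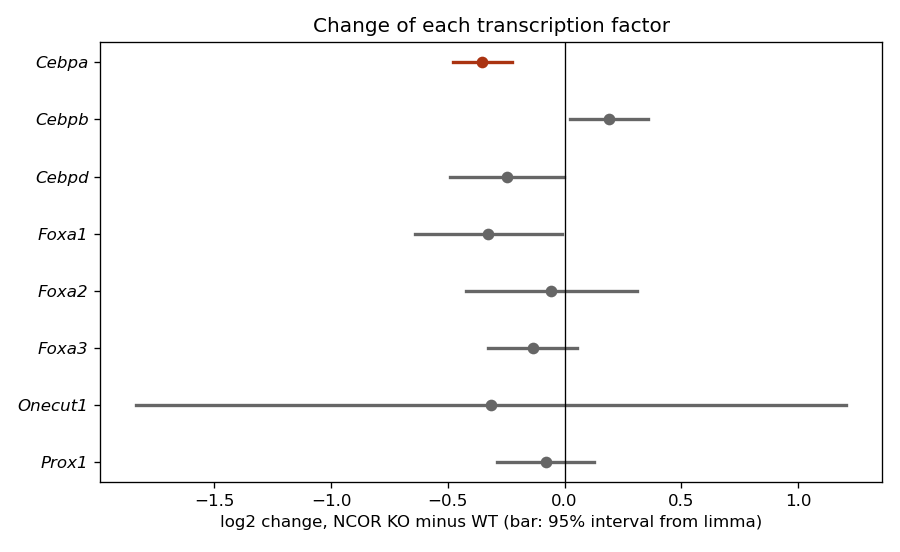
Log2 change of each factor, NCOR KO minus WT (horizontal axis), as a point with its 95% interval from limma; the gene that passed the adjusted threshold is red and the others are grey. Cebpa lies at -0.35. The intervals, which are not adjusted for the number of genes, leave out 0 for Cebpa, Cebpb, Cebpd and Foxa1. That of Onecut1 runs from -1.84 to 1.21.

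The change of Cebpa was also set against that of each other factor. For this the log2 value of the other gene was subtracted from that of Cebpa within each array, which removes array-wide scaling. The groups were then compared by an exact two-sided permutation test over 70 assignments, whose smallest p is 0.0286, adjusted over 7 pairs. Cebpa was singled out with its change already known. Against Cebpb the difference of changes was -0.54 (95% interval -0.76 to -0.33). The 4 NCOR KO values, 1.16 to 1.23, lay below the 4 WT values, 1.54 to 1.93, with exact p = 0.0286 and adjusted p = 0.2. The remaining differences were -0.30 against Foxa2, -0.27 against Prox1, -0.22 against Foxa3 and -0.10 against Cebpd. Against Onecut1 and Foxa1 they were -0.04 and -0.03. Their adjusted exact p-values ran from 0.2 (Foxa3) to 0.943 (Foxa1 and Onecut1). With 4 livers a group, 1 pair that is fully apart cannot reach an adjusted p below 0.2 over 7 pairs, so the adjusted values cannot settle any single pair. The 95% intervals against Cebpb and against Foxa3 (-0.42 to -0.01), which are not adjusted for the number of pairs, did not include 0. The interval for Foxa1, from -0.46 to 0.41, leaves room for differences in either direction.

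**Figure D3:**
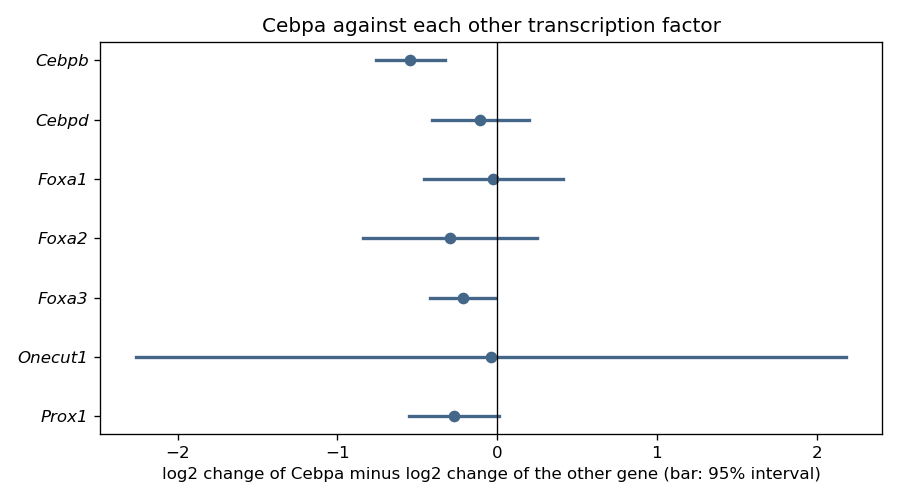
Log2 change of Cebpa minus log2 change of each other factor (horizontal axis), as a point with its 95% interval from the within-array differences of 4 WT and 4 NCOR KO livers. The interval against Cebpb, -0.76 to -0.33, lies farthest from 0, and 4 of the 7 points are within 0.25 of 0.

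Onecut1, also known as HNF6, is a cut-homeodomain factor of hepatocytes and biliary cells. In rodent liver its transcription is known to respond to growth hormone through STAT5. It was at 1264, 225, 921 and 1233 in WT and 154, 1269, 690 and 1001 in NCOR KO liver. WT replicate 2 and NCOR_KO replicate 1 were low, and the other 6 livers lay between 690 and 1269. The lowest and highest differed 8.24-fold. The log2 change between groups was -0.31 ± 0.69 (SE; adjusted p = 0.864). Its within-group SD of 1.28 ranked 3 among 22180 genes. Without NCOR_KO replicate 1 the Onecut1 change was 0.34, and without WT replicate 2 it was -0.90.

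Genes whose pattern over the 8 arrays was most like that of Onecut1 were found by the root mean square difference of gene-centred log2 values. This look was chosen after its spread had been seen and is a description. Among the 10535 genes compared, the closest were Serpina4-ps1 (0.469), the forkhead gene Foxq1 (0.566), B3galt1 (0.617), Phlda1 (0.678) and Cish (0.682), where the median gene was at 1.11. Cish encodes a feedback inhibitor of cytokine receptor signalling that STAT5 induces. Its intensity was 76.1 in WT replicate 2 and 78.6 in NCOR_KO replicate 1, and 135 to 169 in the other 6 livers. Socs2, another feedback gene of the growth hormone pathway, was at 197 and 223 in those livers and at 443 to 1965 in the others. Bcl6, a repressor that growth hormone lowers in rodent liver, had the pattern closest to the mirror image of Onecut1. It was at 434 and 561 in those livers and at 164 to 212 in the others. For these 3 genes, as for Onecut1, the same livers of both groups stood apart from the other 6. They were picked for this pattern.

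**Figure D4:**
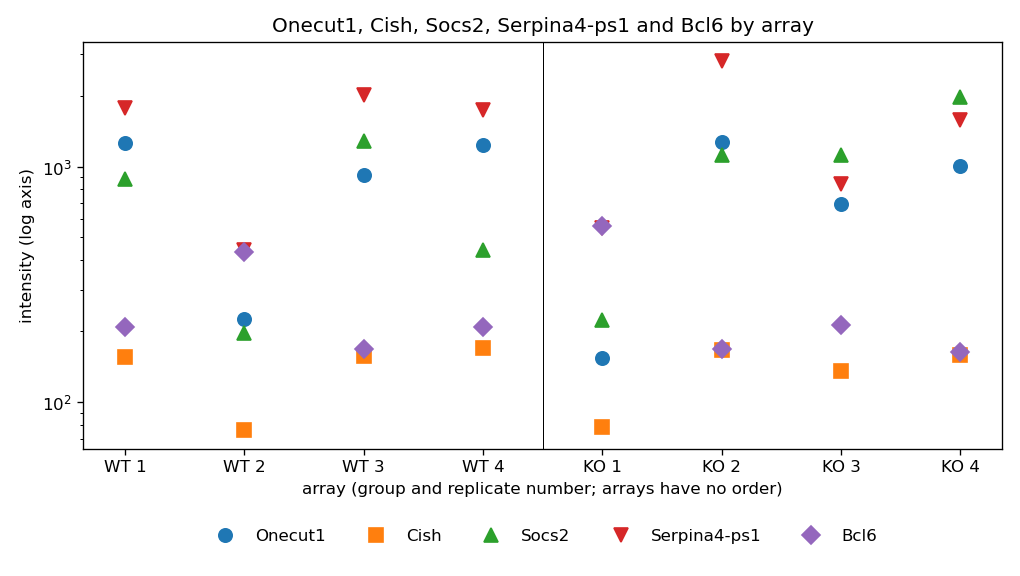
Intensity (vertical log axis) of Onecut1, Cish, Socs2, Serpina4-ps1 and Bcl6 in each of the 8 arrays, with 1 marker per gene and array. In WT replicate 2 and NCOR_KO replicate 1, Onecut1 is at 225 and 154, with Cish, Socs2 and Serpina4-ps1 low and Bcl6 high.

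The growth hormone list, also added after values had been seen, had 9 measured genes, of which 1 rose and 8 did not pass. Over all genes 1.65% passed in either direction. In 2 of the 9 (Cish and Socs2) both livers low in Onecut1 lay below the other 6, and in 1 (Bcl6) both lay above. The remaining 6 genes, among them Ghr, Jak2, Stat5a, Stat5b and Igf1, followed neither pattern. Cish, Socs2 and Bcl6 had been picked for the pattern. The share of all genes that follow it was not counted, so these counts describe the listed genes only. The riser was Stat5a, a signal transducer of the pathway, at 0.47 ± 0.08 (SE; limma adjusted p = 0.0179). Its call was lost without WT replicate 1, NCOR_KO replicate 1 or NCOR_KO replicate 2. The receptor gene Ghr was at -0.24 (adjusted p = 0.0587; it passed in 4 of 15 alternative fits) and Igf1 at -0.05 (adjusted p = 0.732). Kupffer cell markers were lowest within each group in the same livers as Onecut1. Lyz2 in WT replicate 2, at a log2 intensity of 9.06, still lay above NCOR_KO replicates 2 and 3, at 9.02 and 8.98. The summed intensity of 10 such markers ranged from 2983 to 5324 in WT and from 3408 to 5841 in NCOR KO liver. Their part in the Onecut1 values was not tested. Without WT replicate 2 and NCOR_KO replicate 1 together, an alternative chosen after seeing the data, the change of Onecut1 was -0.24 (adjusted p = 0.673). That of Cebpa was -0.37 (adjusted p = 0.0483), and 202 genes were called in all.

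Foxa2, which ONECUT1 is known to activate in mouse liver development, was lowest of the WT livers in WT replicate 2, at 343, and lowest of the NCOR KO livers in NCOR_KO replicate 1, at 262. These are the livers with the lowest Onecut1 of each group. The match was seen on looking over the values, and how many genes share it was not counted. In the other 6 livers Foxa2 lay between 383 and 485, so the step was much smaller than that of Onecut1. Whether Foxa2 depended on Onecut1 in these livers was not tested. Foxa1 was also lowest in NCOR_KO replicate 1, at 337, but not in WT replicate 2. Cebpa did not follow this split, with 2198 in WT replicate 2 and 1792 in NCOR_KO replicate 1, each inside or at the top of its group.

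The genes whose pattern was most like that of Cebpa were, by the same measure, Bcl7a (0.0428), Glyctk (0.0463), Bri3 (0.0514), Gpr108 (0.0535) and Gstp1 (0.0562), where the median gene was at 0.203. Glyctk encodes glycerate kinase, which acts in serine and fructose breakdown, and Gstp1 a glutathione transferase. Their log2 changes ran from -0.37 to -0.29. All 5 passed, where 1.65% of all genes did. They were picked for their likeness to Cebpa, so their falls and calls follow largely from that choice. The call of Bcl7a was lost in each fit that left out 1 array. That of Gpr108 was lost in each but the one without WT replicate 3, and that of Gstp1 in each but those without WT replicate 3 or NCOR_KO replicate 1. Glyctk lost its call without WT replicate 4 or NCOR_KO replicate 3, and Bri3 without NCOR_KO replicate 2. Of the 4 genes nearest to Cebpa in RefSeq order none passed. With 1.65% of all genes called, 4 genes are too few to set apart from that share. Cebpg, a C/EBP gene beside it, was at 0.0030 ± 0.09 (SE; adjusted p = 0.99). Pepd, Slc7a10 and Lrp3 were at -0.07, 0.09 and -0.02.

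Other factors that share or bind the C/EBP leucine zipper were read from the same fit. Of 9 measured, 1 rose, 1 fell and 7 did not pass, beside 1.65% of all genes called in either direction. Cebpe, which encodes the granulocyte factor C/EBPε, fell by 0.36 (SE 0.07, limma adjusted p = 0.0306), from 8.38 ± 0.05 to 8.02 ± 0.10 (SD, n = 4). That call was lost in 8 of 15 alternative fits, among them those without WT replicates 1 to 4 and NCOR_KO replicates 1 to 3. Neutrophil markers were dim, with 8 of 9 below the median gene level, and their summed intensity was 238 to 291 in WT and 251 to 258 in NCOR KO liver. Probe sequences were not used here, so signal shared between C/EBP paralogs was not tested. Nfil3, a clock-linked repressor of the wider family, rose 2.05-fold (1.03 ± 0.12 SE, adjusted p = 0.00338). Ddit3, which encodes the stress factor CHOP, was at 0.04 (adjusted p = 0.851). Of 13 genes acting on C/EBP proteins or upstream of Cebpb and Cebpd, 0 passed in limma and 3 had an unadjusted p under 0.05 (15.9% of all genes did). Trib1, an adaptor that marks C/EBPα for degradation, was at 0.07 (adjusted p = 0.686). The ligase gene Cop1 was at -0.0064 (adjusted p = 0.972), and the interleukin-1 receptor gene Il1r1 was at 0.63 (adjusted p = 0.0779) and passed in 2 of 15 alternative fits.

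Of 35 other transcription factors of liver function or development, 0 passed the limma threshold and 14 had an unadjusted p under 0.05, beside 15.9% of all genes. Their median change was -0.02, 15 were above 0 and 20 below. The largest difference was that of Hhex, a homeobox gene of early liver development, at -0.59 ± 0.23 (SE; adjusted p = 0.232). Onecut2, the paralog of Onecut1, was at -0.37 ± 0.09 (SE; adjusted p = 0.072), with the groups apart, and it passed in 4 of 15 alternative fits, one of them without WT replicate 2 and one after median centring. Foxq1 shared the low value of Onecut1 in NCOR_KO replicate 1, at 71.6 against 271 to 382 in the 6 livers with high Onecut1, and stood at 203 in WT replicate 2.

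Genes described as depending on the 8 factors were counted next, where 1.65% of all genes passed in either direction. Among 26 measured hepatic genes known to be lowered without C/EBPα, 1 fell, 0 rose and 25 did not pass, with a median change of -0.06 against 0.0063 over all genes. The one that fell was Bdh1, which encodes a ketone body dehydrogenase, by 0.31 (SE 0.06, limma adjusted p = 0.0429), a call lost in 10 of 15 alternative fits, including each of the 8 that left out 1 array. The gluconeogenic genes Pck1 and G6pc were at -0.08 (adjusted p = 0.527) and 0.03 (adjusted p = 0.893). The urea cycle gene Cps1 was at 0.01 (adjusted p = 0.943). Pck1, G6pc and Cps1 were among the brightest genes, at brightness percentiles of 99.8, 99.8 and 99.9. Whether changes are compressed at that level was not tested. The glycogen synthase gene Gys2 and the glucose transporter gene Slc2a2 were at -0.32 (adjusted p = 0.118) and -0.38 (adjusted p = 0.0874). Fasn stood the other way at 0.73 (adjusted p = 0.0501), and it passed in 5 of 15 alternative fits, one of them without WT replicate 4.

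Acute phase genes, which C/EBPβ and C/EBPδ bind, had 16 of 18 measured members below 0 with a median of -0.16, where 0 passed in limma and 3 had an unadjusted p under 0.05, a share near the 15.9% of all genes. WT replicate 1 stood apart in this list. Saa2 was at 4312 there and at 207 to 834 in the other 3 WT livers, and at 278 to 569 in NCOR KO liver. Orm2 was at 3711 there against 289 to 416 in the other WT livers. In that liver Cebpb was the lowest of the 8, at 595, and Cebpd was at 74.6, within the range of the other WT livers. The summed intensity of the list was 71737 to 92686 in WT and 66834 to 72548 in NCOR KO liver.

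Among 20 genes described as FOXA targets 2 rose, 0 fell and 18 did not pass, with a median of -0.01. The same test called 1.65% of all genes. Igfbp1, an insulin-like growth factor binding protein gene, rose by 0.68, and the cytochrome P450 gene Cyp2c55 by 1.48. Hsd3b5 had the largest change of the 20, at -1.65 ± 0.38 (SE; limma adjusted p = 0.0624), and did not pass. The groups were fully apart with NCOR KO lower for 5 of the 20 and higher for 2. They were apart in either direction for 10.4% of all genes. Ttr and Apoa1 were at -0.06 (adjusted p = 0.636) and 0.05 (adjusted p = 0.734). Among 10 targets described for ONECUT1 or PROX1, 2 rose and 8 did not pass, with 9 of 10 above 0 and a median of 0.26 against 0.0063 over all genes. Cdkn1a, the cell cycle inhibitor p21, rose by 2.10 and lost its call without NCOR_KO replicate 2 (limma adjusted p = 0.0641). Cyp2c38 rose by 1.28. Cyp7a1, which starts the classical route from cholesterol to bile acids, was at 0.44 ± 0.45 (SE; adjusted p = 0.682).

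**Figure D5:**
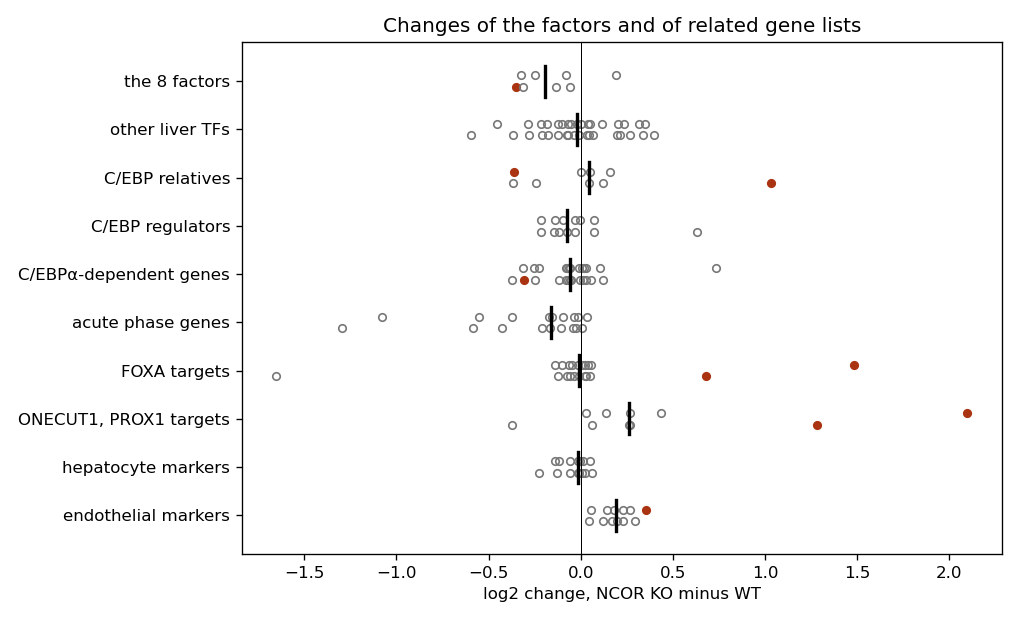
Log2 change, NCOR KO minus WT (horizontal axis), of each measured gene in 10 lists, with filled red circles for genes past the limma threshold, open circles for the others and a black bar at each list's median. The median of the 8 factors is -0.19, that of the other liver transcription factors -0.02 and that of the endothelial markers 0.19.

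Markers of other liver cells were read from the same fit, in which 1.65% of all genes passed in either direction. All 12 endothelial markers were above 0, with a median of 0.19. Of these, 1 rose, Robo4, by 0.35 (limma adjusted p = 0.0429), and 11 did not pass. The summed intensity was 6234 to 7451 in WT and 7415 to 8397 in NCOR KO liver. Of the cholangiocyte markers 8 of 9 were above 0, their median was 0.23, and Epcam rose by 0.41 (adjusted p = 0.0452). Their sum was 425 to 452 in WT and 489 to 560 in NCOR KO liver, with 6 of the 9 below the median gene level. Lymphocyte markers were dim as well, with 7 of 8 below that level. Cd3e and Cd79a rose by 0.47 and 0.41, and the sum was 310 to 333 in WT and 358 to 412 in NCOR KO liver. An unadjusted limma p under 0.05 was seen for 6 of 12 endothelial, 4 of 9 cholangiocyte and 4 of 8 lymphocyte markers. Over all genes that share was 15.9%. The call of Epcam was lost in each fit without 1 array, and that of Robo4 in each but the one without WT replicate 3. That of Cd3e was lost without WT replicate 1, WT replicate 3 or any NCOR_KO replicate, and that of Cd79a without WT replicate 1, WT replicate 4 or NCOR_KO replicate 3. Hepatocyte markers summed to 104804 to 106418 in WT and 102520 to 104820 in NCOR KO liver. Of the 15, 0 passed in limma and 1 had an unadjusted p under 0.05, where 15.9% of all genes did. The part of cell composition in the change of Cebpa was not tested. Of 10 Kupffer cell, 9 stellate cell and 9 neutrophil markers, 0 passed in limma and 0 had an unadjusted p under 0.05.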

How the data were processed

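Total RNA was labelled with biotin and hybridised to 1-colour arrays, 4 per group. The authors deposited probe set intensities on a linear scale. RMA and Partek are named in the submitters' processing notes, with no roles or versions. Genome build and filters are not given in the sources used here. Of 41345 rows, 23521 had 1 gene, 1814 several and 16010 none. The brightest single-gene row per gene was kept, giving 22180 genes, and log2 was taken.

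Groups were compared with limma 3.58.1 in R 4.3.3 (lmFit and eBayes, group only), with Benjamini-Hochberg adjustment over all genes and a threshold of 0.05. Changes are NCOR KO minus WT. The steps were tested on simulated data. Alternatives covered scaling, array weights, variance model, dim genes, rows per gene, the replicate number as a block, the threshold and leaving out arrays. Same-numbered arrays did not deviate together (correlations -0.0935 to 0.0167), so the numbers were not taken as pairs.

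The members and lists were chosen with earlier results of these data known. Named were the 8 factors, up to 4 called genes per list (otherwise the largest change) and the 5 genes most like Cebpa. Other named genes, the growth hormone list and the genes like Onecut1 were chosen after values were seen. Older symbols were matched through RefSeq synonyms. Figures used matplotlib 3.10.9.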

Additional observations from a re-analysis of the deposited data

Results flagged for a closer look

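In 84 groups of 4 livers, from 42 genes, 7 held 1 liver far from the other 3 of its group. Chance marks about 1 in 20 groups of genes picked blind to their values. Some of the 42 genes, Cish among them, were picked by their values, and all groups share the same 8 arrays. That rate therefore does not apply directly here. Cebpd was at a log2 intensity of 5.78 in NCOR_KO replicate 3 and at 6.09 to 6.15 in the other NCOR KO livers. Nfil3 was at 7.30 in WT replicate 4 against 7.77 to 7.80 in the other WT livers. Bdh1 was at 9.04 and Gstp1 at 12.6 in NCOR_KO replicate 1, against 9.22 to 9.23 and 12.42 to 12.43. Orm2 was at 11.86 in WT replicate 1 against 8.17 to 8.70. Stat5a was at 7.76 in NCOR_KO replicate 3 against 7.92 to 7.96. Cish was at 6.25 in WT replicate 2 against 7.28 to 7.40. Onecut1 itself was not marked in either group.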

How the results depend on the processing

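Across 16 alternative fits Cebpa lay between -0.388 and -0.3261 (-0.3728 to -0.3261 with single arrays left out), and no other factor gained a call. With the replicate number as a block, a pairing the data did not bear out (0 of 4 WT arrays correlated best with their own number), Cebpa was at -0.3522 with adjusted p = 0.0565. The block called 155 genes (84 higher, 71 lower) and 0 of the 8 factors. Genes at or above the median level gave 551 calls (314 lower), median centring 295 lower. An adjusted p threshold of 0.01 gave 88 calls (54 and 34) with 0 of the 8, and 0.1 gave 807 (371 and 436). Leaving out single arrays gave 120 to 297 calls, 67 to 139 higher and 53 to 158 lower, with 0 to 1 of the 8. Without both arrays low in Onecut1, chosen after seeing the data, 202 were called (102 and 100) and Foxa2 was at 0.05482. With single arrays left out, Foxa2 ran from -0.1749 to 0.1217, Onecut1 from -0.8961 to 0.3448 and Prox1 from -0.1521 to 0.01053. Cebpa minus Foxa1 ran from -0.1542 to 0.05474 and Cebpa minus Onecut1 from -0.7148 to 0.5425. The cause of these turns was not tested, beyond that fewer arrays entered the fits. Igfbp1 lost its call with the block (adjusted p = 0.0556). Median centring moved the median change of all genes to -0.0295. Epcam and Robo4 lost their calls under it.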
